A study of Mus musculus with 28 samples.

Results

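The mitosis genes described here are 39 genes whose products build or drive mitosis, the step in which a cell separates its copied chromosomes and divides. They were chosen by gene symbol from a list of cyclins, kinases, kinetochore proteins, kinesins and cytokinesis factors. No cutoff on their values was used, but earlier results of these data were known. All 39 were found, each under 1 entry, among the 33411 gene symbols of every deposited table, and each reached 1 FPKM in all 28 libraries. FPKM counts sequenced fragments relative to transcript length and library size.

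The cells were macrophages grown for 7 days from bone marrow of FVB/Hsd mice in L929-conditioned medium, a source of the growth factor M-CSF, infected with retroviral vectors and selected with puromycin. Each library came from cells with a hairpin or from cells with a control vector. Hairpin sh1137, a single hairpin against Wdr82, was compared with the empty vector LMP in 3 sets: unstranded 4sU RNA (no LPS, or LPS for 45 min, 2 h or 4 h), stranded 4sU RNA (no LPS, or LPS for 1 h) and polyA RNA (no LPS, or LPS for 4 h). The same hairpin was compared with a scrambled hairpin in 4sU RNA after 45 min of LPS with or without DRB, an inhibitor of elongation by RNA polymerase II. Hairpins against Set1a+Set1b, and against Pnuts, were compared with a scrambled hairpin in stranded 4sU RNA of untreated cells and after 45 min of LPS. LPS, a bacterial cell wall component that activates macrophages, was given at 10 ng/ml, with times taken from the sample titles. 4sU is a uridine analog given for 45 min before harvest, and RNA that carries it was made in that window, whereas polyA RNA is the standing pool of mature messages. Where the control vector was empty, a response to any hairpin cannot be told apart from a response to loss of Wdr82. A set held a single library for each vector and treatment.

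Mitosis genes are switched on late in the cell cycle, in G2 and M phase, and are silent in cells that have left the cycle. In G1 the DREAM complex holds them down, and in G2 B-Myb, FOXM1 and the CCAAT-binding factor NF-Y activate them, through CHR and CCAAT motifs close to the start site. Part of a macrophage culture grown in M-CSF is still dividing. In RNA pooled from a culture, fewer dividing cells and less RNA per dividing cell cannot be told apart.

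Promoters are shown for 6 members, taken from those with a CHR and a CCAAT match both within the 150 bases before the start. Other members held their CHR after the start, such as Plk1, Aurka and Cenpa, and are not shown. Each run is the 150 bases before the start, 5′ to 3′ in the direction of the gene, from RefSeq (GRCm38.p6). Capitals mark CHR letters (TTTGAA or TTCGAA, or TTCAAA where read from the other strand) and CCAAT letters (ATTGG from the other strand).
Cdk1: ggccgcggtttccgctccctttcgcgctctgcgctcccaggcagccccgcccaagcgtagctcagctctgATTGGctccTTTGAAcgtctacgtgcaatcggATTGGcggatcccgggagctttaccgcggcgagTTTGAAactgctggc
Cdc20: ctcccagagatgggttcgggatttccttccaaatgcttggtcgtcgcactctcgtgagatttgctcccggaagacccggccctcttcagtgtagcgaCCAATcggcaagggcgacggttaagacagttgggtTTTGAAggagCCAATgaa
Ube2c: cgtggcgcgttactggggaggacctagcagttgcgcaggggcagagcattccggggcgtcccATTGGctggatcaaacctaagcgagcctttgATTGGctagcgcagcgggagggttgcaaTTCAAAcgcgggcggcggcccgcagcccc
Kif11: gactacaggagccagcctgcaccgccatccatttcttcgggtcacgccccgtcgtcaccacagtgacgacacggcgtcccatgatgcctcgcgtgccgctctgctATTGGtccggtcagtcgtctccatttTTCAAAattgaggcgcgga
Prc1: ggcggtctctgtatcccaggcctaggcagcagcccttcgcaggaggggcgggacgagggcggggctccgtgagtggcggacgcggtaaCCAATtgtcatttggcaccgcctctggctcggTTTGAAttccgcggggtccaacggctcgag
Top2a: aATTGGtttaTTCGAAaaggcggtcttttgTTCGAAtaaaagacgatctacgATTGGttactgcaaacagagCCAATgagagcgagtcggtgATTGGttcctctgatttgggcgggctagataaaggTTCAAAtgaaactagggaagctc
These stretches lie at chr10:69352913-69353062 (minus strand) for Cdk1, chr4:118437344-118437493 (minus strand) for Cdc20, chr2:164769779-164769928 (plus strand) for Ube2c, chr19:37376232-37376381 (plus strand) for Kif11, chr7:80294326-80294475 (plus strand) for Prc1 and chr11:99024190-99024339 (minus strand) for Top2a. The genes of these promoters encode, in this order, the kinase of mitotic entry and the coactivator and ubiquitin-conjugating enzyme of the anaphase-promoting complex. Then follow a spindle kinesin, a midzone crosslinker and the DNA topoisomerase of condensing chromosomes. Because the stretches were chosen for holding both motifs, all 6 have at least 1 CHR and 1 CCAAT, and Top2a has 3 and 4.

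Of the 39 members, 32 had a RefSeq promoter from 250 bases before to 50 after the start, with 34 promoters in all, and Tpx2, Kif20a, Aurkb, Foxm1, Ccna2, Incenp and Cdc25c had none. A CHR on either strand was present in 28 of 34 member promoters (82.4%), against 19.2% of 32851 promoters of all genes. CCAAT was present on either strand in 27 of 34 (79.4%), against 37.4% of all promoters. Both motifs stood together in 24 of 34 (70.6%), against 7.52% of all promoters. An E2F motif (TTTCCCGC or TTTGGCGC, either strand), typical of S phase genes, was found in 1 of 34, against 1.56% of all. No motif searched is contained in another, and a match of letters describes the window and is not a measured binding site.

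The targeted transcripts were read first. Wdr82, a subunit of the Set1 complexes that binds RNA polymerase II, had the lower value in the sh1137 library of every pair. In polyA RNA it went from 16.8 to 3.71 FPKM in untreated cells and from 22.6 to 4.03 after 4 h of LPS. Among 4sU libraries of the unstranded set, the control libraries held 21.6 to 32.5 FPKM and the sh1137 libraries 10.3 to 16.2. Setd1a and Setd1b, which encode Set1a and Set1b, were not lowered 2-fold in the Set1a+Set1b set: Setd1a went from 16.1 to 14.8 FPKM untreated and from 18.1 to 13.5 after LPS, and Setd1b from 11.3 to 11.8 and from 10.5 to 6.70. Ppp1r10, which encodes Pnuts, was higher in the libraries labelled Pnuts hairpin, at 144 against 89.5 FPKM untreated and 332 against 203 after LPS. The label is thus not borne out by its own newly made transcript, and the comparison is given below as the set labelled Pnuts. This set and the Set1a+Set1b set held only 4sU RNA, so the standing pool of Ppp1r10, Setd1a and Setd1b messages was not measured. Ppp1r10 also rose with sh1137 in the unstranded 4sU set (log2 1.15, adjusted p = 0.0122, limma).

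A library held 11533 to 13799 genes at or above 1 FPKM, and the steps between low values imply that read depth differed within a set by 1.60-fold to 3.34-fold. Macrophage markers (13 of the 14 listed were in the tables) summed to at least 2135 FPKM in every library. The 6 red cell markers summed to at most 5.25 FPKM in any library. Stroma markers were higher with sh1137 in the unstranded set (1.10 to 2.56 against 3.56 to 5.32) and the stranded set (1.53 to 1.80 against 3.68 to 4.48). They were lower with the hairpins in the Set1a+Set1b set (3.02 to 3.56 against 2.02 to 2.55) and the set labelled Pnuts (15.7 to 17.7 against 9.24 to 13.2). In the polyA and DRB sets their ranges overlapped. Neutrophil markers moved with the hairpin: their 8 genes summed to 28.3 to 62.8 FPKM in control and 61.5 to 106 FPKM in sh1137 libraries of the unstranded set, and to 12.9 to 17.8 against 43.2 to 51.7 in the Set1a+Set1b set, and the sh1137 libraries were also higher in the stranded, DRB and polyA sets. In the set labelled Pnuts they ran the other way, with 27.4 to 34.3 in control and 17.3 to 18.9 in hairpin libraries. Myeloid progenitor markers (9 genes) in that set summed to 26.2 to 30.7 against 7.14 to 8.54. They were also lower with sh1137 in the stranded set (25.6 to 26.8 against 16.3 to 18.0) and the DRB set (19.9 to 26.0 against 13.5 to 18.1). Their ranges overlapped in the unstranded set (17.1 to 23.6 against 10.7 to 21.0), the polyA set (2.11 to 12.7 against 4.53 to 6.34) and, higher with the hairpins, the Set1a+Set1b set (17.0 to 19.7 against 19.3 to 25.2). Their part in the results was not tested.

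Mitosis genes fell in newly made RNA of cells with sh1137. In the unstranded 4sU set, 33 of 39 members were called lower and 0 higher, against 6.99% of 14157 genes called lower and 6.07% called higher. The call is an adjusted p under 0.05 in a limma fit that takes the 4 treatment times as repeats of the hairpin difference. All 39 members had a log2 difference below 0, with a median of -0.65, where the median of all tested genes was 0.00 and 7014 of them were below 0. The members ranged from -0.97 for Ube2c to -0.31 for Incenp. The number of calls rests on all 4 times: it was 0 without untreated cells, 0 without 45 min, 1 without 2 h and 20 without 4 h, while the median difference stayed between -0.68 and -0.60. Without a filter on FPKM it was 7. Nothing says that the times were separate cultures, so p measures the spread between these libraries.

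Among cyclins and Cdk1 regulators, 5 of 6 were called lower. Cdk1, the kinase that starts mitosis, held 80.4, 87.0, 72.9 and 48.1 FPKM in control cells (no LPS, then LPS for 45 min, for 2 h and for 4 h) and 60.4, 53.8, 39.8 and 29.0 with sh1137. It was lower at each time, by -0.66 on the log2 scale (SE 0.09, adjusted p = 0.0207). Ccna2, cyclin A2, held 55.1, 59.1, 45.7 and 17.4 FPKM in control cells and 34.4, 26.3, 28.4 and 8.63 with the hairpin. Its difference was -0.85 (adjusted p = 0.0173), with overlap between groups only through the low 4 h control. Ccnb2, cyclin B2, and the phosphatases Cdc25b and Cdc25c, which activate Cdk1, were also called lower, at -0.75, -0.64 and -0.80. Cyclin B1, Ccnb1, held 26.6, 19.1, 21.9 and 20.5 FPKM in control and 17.5, 15.4, 16.1 and 7.48 with sh1137 and missed the threshold (log2 -0.66, SE 0.19, adjusted p = 0.0870).

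Foxm1, the transcription factor that activates many of the other members, held 45.1, 37.3, 38.5 and 20.7 FPKM in control and 30.9, 24.4, 19.6 and 12.9 with sh1137 (log2 -0.68, adjusted p = 0.0198). Both genes of the anaphase-promoting complex group were called lower. Ube2c, its ubiquitin-conjugating enzyme, held 31, 31.5, 33.2 and 21.4 FPKM in control and 14.6, 14.8, 15.5 and 12.2 with the hairpin. The 4 hairpin libraries lay below the lowest control, and the fitted level was 0.509 of control (log2 -0.97, SE 0.08, adjusted p = 0.0101). Cdc20, the coactivator that triggers anaphase, held 23.2, 21.3, 21.5 and 9.04 FPKM in control and 14.7, 13.1, 10.8 and 3.38 with sh1137 (log2 -0.85, adjusted p = 0.0214).

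The 3 mitotic kinases were called lower. Plk1, which matures centrosomes, held 16.5, 12.1, 15.5 and 9.06 FPKM in control and 7.26, 6.94, 7.64 and 3.59 with sh1137, without overlap (log2 -0.97, SE 0.10, adjusted p = 0.0127). Nek2, which separates centrosomes, held 25.6, 23.1, 17.5 and 7.46 FPKM in control and 12.6, 11, 8.50 and 3.77 with the hairpin. It was lower at each time (log2 -0.94, SE 0.07, adjusted p = 0.00892), though the 4 h control lay below 3 of the hairpin libraries. Aurka, the spindle pole kinase, held 35.9, 24.0, 26.5 and 16.2 FPKM in control and 23.7, 20.2, 15.8 and 10.4 with sh1137 (log2 -0.53, adjusted p = 0.0347).

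The spindle checkpoint kinases, which delay anaphase until chromosomes are attached, were all called lower, at -0.56 for Bub1, -0.49 for Bub1b and -0.56 for Ttk. Bub1 held 25.9, 25.3, 21.6 and 11 FPKM in control and 17.8, 16.5, 12.9 and 7.89 with sh1137. Bub1b held 25.7, 23.3, 24.0 and 8.24 FPKM in control and 19.4, 16.8, 13.5 and 6.28 with the hairpin. In both genes the groups overlapped only through the 4 h control.

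The chromosomal passenger complex, which corrects wrong attachments and later guides cytokinesis, had 2 of 4 genes called. Its scaffold Incenp held 58.1, 61.8, 54.1 and 36.7 FPKM in control and 51.5, 53.4, 34.5 and 31.3 with sh1137 (log2 -0.31, SE 0.10, adjusted p = 0.109). The kinase Aurkb held 40.1, 32.8, 27.9 and 18.8 FPKM in control and 34, 18.6, 22.6 and 14.5 with the hairpin (log2 -0.42, adjusted p = 0.0761). Birc5, survivin, held 53.4, 52.8, 36.8 and 29.2 FPKM in control and 35.7, 30.6, 24.0 and 12.3 with sh1137 and was called lower (log2 -0.78, adjusted p = 0.0264). Cdca8, borealin, was also called, at -0.56.

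All 6 centromere and kinetochore genes were called lower, between -0.85 for Nuf2 and -0.53 for Spc25, which both belong to the Ndc80 complex that grips microtubules. Cenpa, the histone H3 variant of centromeres, held 45.8, 35.4, 39.5 and 18.4 FPKM in control and 32.4, 25.5, 22.1 and 11.4 with sh1137. Cenpe, a kinetochore motor, held 22.2, 26.9, 22.3 and 43.5 FPKM in control and 13.5, 15.9, 13.4 and 25.4 with the hairpin (log2 -0.71, SE 0.06, adjusted p = 0.0101). Its 4 h libraries were the highest of their arm, unlike those of the other members. Ndc80 and Cenpf were called at -0.65 and -0.58.

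Of the kinesins, the motors that build and slide the spindle, 5 of 6 were called lower, led by Kif20a at -0.86 and Kif22 at -0.70. Kif23, a motor of the central spindle, held 28.4, 32.9, 21.8 and 6.73 FPKM in control and 17.3, 20.5, 12.5 and 5.09 with sh1137. Kif2c, which takes microtubule ends apart, held 24.5, 15.6, 20.0 and 9.58 FPKM in control and 15.4, 11.1, 11 and 9.22 with the hairpin and was not called (log2 -0.49, SE 0.14, adjusted p = 0.0834). Its pair at 4 h was nearly equal. Kif11 and Kif15, which push spindle poles apart, were called at -0.61 and -0.57.

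Prc1, which bundles midzone microtubules, held 30.9, 36.8, 30.3 and 15.5 FPKM in control and 16.4, 19.4, 15.2 and 8.0 with sh1137. It had the lowest p of the members (log2 -0.90, SE 0.06, adjusted p = 0.00813). Tpx2, a spindle assembly factor that activates Aurka, held 36.3, 35.3, 26.4 and 23.5 FPKM in control and 20.8, 27.8, 21.1 and 18.9 with the hairpin and was not called (log2 -0.43, adjusted p = 0.0639). Nusap1, a further spindle protein, was called at -0.53. The 3 cytokinesis genes were called, with Anln, the anillin scaffold, at -0.82, Ect2 at -0.49 and Racgap1 at -0.69. Racgap1 held 38.2, 44.6, 46.2 and 23.2 FPKM in control and 26.1, 31.3, 26.7 and 11.5 with sh1137, and Ect2 held 30.8, 31.2, 16 and 15.8 in control and 19.8, 20.8, 14.2 and 9.98 with the hairpin. Both were lower at each time.

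The most abundant members in this set were the chromosome structure genes. Top2a held 125, 131, 161 and 74.5 FPKM in control and 83.0, 79.5, 85.6 and 43.5 with sh1137 (log2 -0.74, SE 0.07, adjusted p = 0.0130). Mki67, which encodes the proliferation antigen Ki-67 on the surface of mitotic chromosomes, held 124, 191, 153 and 79.7 FPKM in control and 78.0, 186, 114 and 54.5 with the hairpin. Its pair at 45 min was nearly equal, and it was not called (log2 -0.41, SE 0.12, adjusted p = 0.0831).

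**Figure D1:**
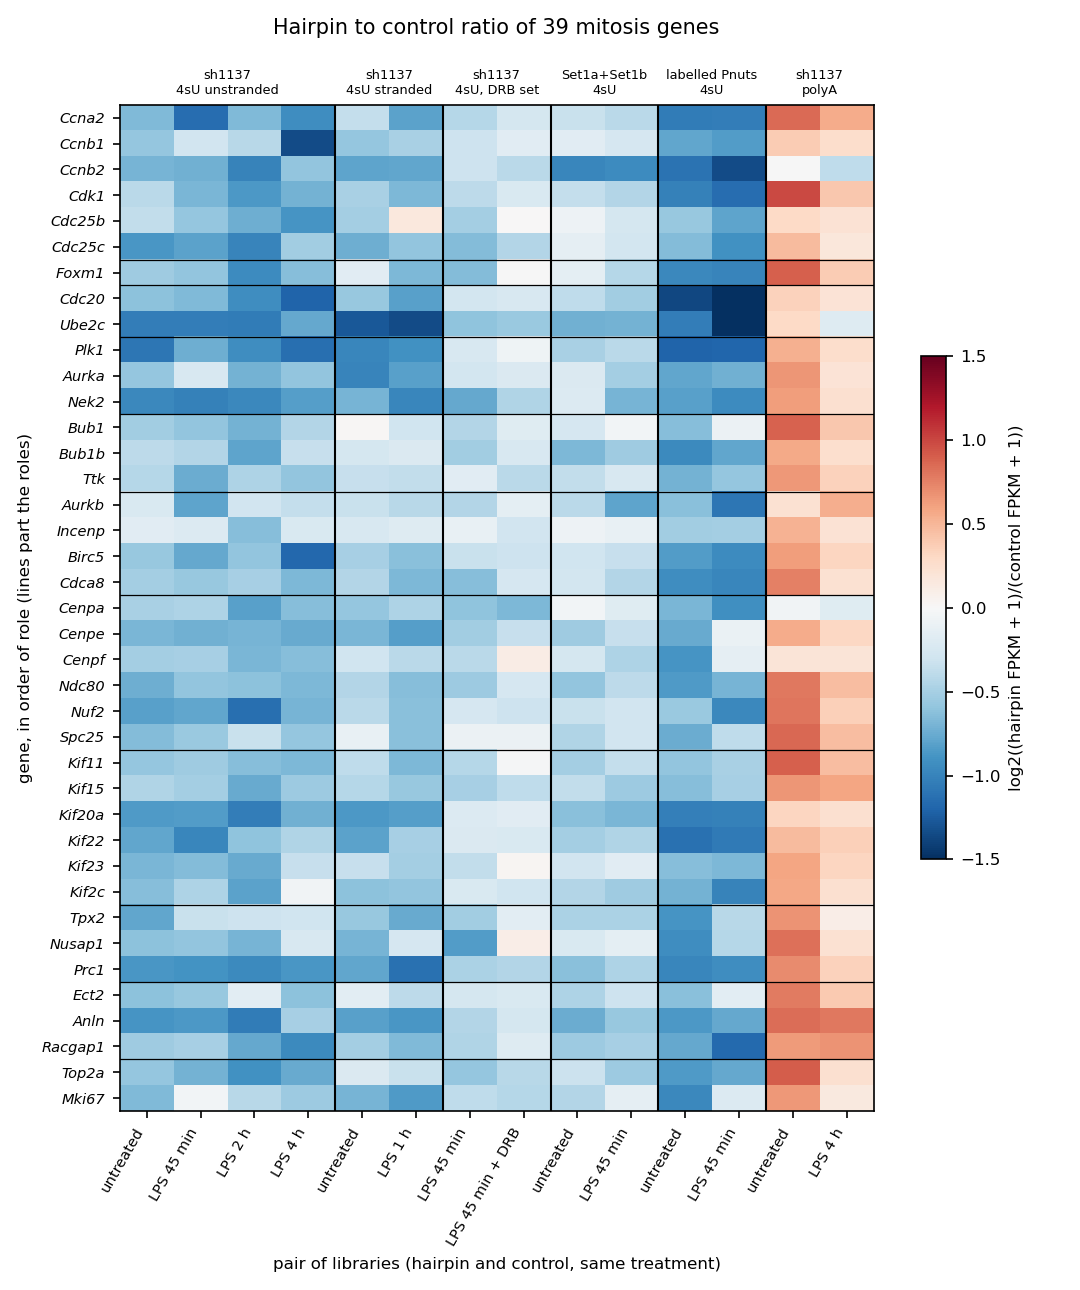
Log2 ratio of hairpin to control FPKM (each plus 1) for the 39 mitosis genes in rows, ordered by role, and the 14 pairs of libraries in columns, grouped by set; each cell is 1 pair of single libraries and colors end at 1.5 in either direction. The 12 pairs of 4sU RNA are mostly blue (462 of 468 values below 0) and the 2 pairs of polyA RNA mostly red.

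In single pairs of 4sU RNA the direction was widely shared while the size stayed under 2-fold for most members. Over the 12 pairs, 462 of 468 values were below 0, and 34 of 39 members (87.2%) were below 0 in each pair, against 681 of 11621 genes (5.86%). The 5 exceptions were Cdc25b, in 2 pairs, and Bub1, Cenpf, Kif23 and Nusap1, in 1 pair each. Without the set labelled Pnuts, 384 of 390 values were below 0, with 34 members and 8.07% of genes below 0 in each pair. Without the DRB-treated pair these were 37 members and 7.96% of genes. Members lowered at least 2-fold, here and below on the scale of FPKM + 1, numbered 2, 3, 5 and 4 in the 4 pairs of the unstranded set, in order of LPS time, against 2.55%, 3.26%, 3.46% and 3.78% of genes. Ube2c, in its locus at chr2:164595397-164605467 (mm9), passed 2-fold most often, in 7 of the 12 pairs. The authors' deposited bounds of hairpin and control overlapped for every member in 12 of the 14 hairpin pairs. The exceptions were Ube2c in the stranded set at 1 h, where 2.67% of genes had bounds apart, and Ube2c and Ccnb2 in the set labelled Pnuts at 45 min, where 1.55% did. In the other pairs the share of genes with bounds apart was 0.226%, 0.558%, 0.478% and 0.537% (unstranded set by time), 2.04% (stranded, no LPS), 0.37% and 0.708% (polyA), 0.313% and 0.322% (DRB set), 0.816% and 1.34% (Set1a+Set1b), and 0.797% (set labelled Pnuts, no LPS).

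In the stranded 4sU set, all 39 fitted differences were below 0 (median -0.56, all genes 0.03), but 1 member passed the threshold, against 0.709% of 13250 genes called lower and 1.65% called higher. This was Ube2c, with 101 and 125 FPKM in control (untreated and 1 h) and 41.3 and 48.8 with sh1137 (log2 -1.31, SE 0.12, adjusted p = 0.0411). An unadjusted p under 0.05 was reached by 30 members (76.9%) and by 27.1% of all genes. Prc1 went from 65.7 to 37.7 and from 91.8 to 41.7 FPKM, Plk1 from 26.4 to 12.9 and from 25.4 to 13.1, at log2 differences of -0.95 and -0.94 that were not called. At the other end, Bub1 held 42.6 and 44.8 FPKM in control and 43.1 and 36.3 with sh1137, and Cdc25b 48.1 and 37.3 against 33.6 and 41.8. In single pairs, 1 member was 2-fold lower untreated and 2 at 1 h, against 3.65% and 4.77% of genes. With 4 libraries and 1 residual degree of freedom, the number of calls moved with the settings, from 0 to 10.

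In the DRB set, the fitted differences of the 39 members were again below 0 (median -0.32, all genes -0.03), none passed limma's threshold and 8 (20.5%) had an unadjusted p under 0.05, as 12.8% of all genes had. At the adjusted threshold, 0.0387% of 12931 genes were called lower and 0.0541% higher. Without DRB the members' median log2 ratio was -0.43 with 39 below 0, and with DRB it was -0.24 with 35 below 0. The lowest fitted values were those of Cenpa, from 42.3 to 27.5 FPKM without and from 32.6 to 20.0 with DRB, and of Nek2, from 20.3 to 11.5 and from 11.7 to 8.33. Whether DRB changed the hairpin difference was not tested. No member changed 2-fold in either pair, where 1.93% and 5.08% of genes were 2-fold lower.

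With the hairpins against Set1a+Set1b, all 39 members were below 0 in both pairs, with median log2 ratios of -0.37 untreated and -0.43 after 45 min of LPS and no member 2-fold lower on the scale of FPKM + 1 (2.17% and 2.92% of genes were). The limma fit called none, against 0.0388% of 12894 genes lower and 0.0233% higher, and 27 members (69.2%) had an unadjusted p under 0.05, against 22.8% of all genes. Ccnb2 was the lowest, from 38.8 to 19.2 and from 44.1 to 22.4 FPKM (log2 -0.96, SE 0.07, adjusted p = 0.146), followed by Ube2c, from 54.2 to 32.6 and from 55.3 to 33.5 (log2 -0.71). Incenp, from 82.4 to 77.8 and from 91.8 to 84.5 FPKM, and Cenpa, from 71.4 to 69.4 and from 50.8 to 44.5, differed least. Macrophage markers in this set summed to 3707 to 5498 FPKM in control and 5944 to 9091 with the hairpins, and their part was not tested.

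In the set labelled Pnuts the median log2 ratio was -0.84 untreated and -0.83 after 45 min of LPS, with all 39 members below 0 in both pairs. These signs follow the labels, which newly made Ppp1r10 RNA does not bear out, and exchanged labels would turn each of them. There 8 and 11 members were at least 2-fold lower, against 2.89% and 4.21% of genes, and 18 at 45 min with centred ratios. Cdc20 went from 35.9 to 13.2 and from 22.2 to 5.88 FPKM (log2 -1.56, SE 0.15, adjusted p = 0.0882), Ube2c from 50.7 to 24.2 and from 50.8 to 17.0, and Ccnb2 from 35.9 to 16.1 and from 41.9 to 15.9. Cdk1 went from 116 to 57.0 and from 143 to 63.9. No member was called by limma, 34 (87.2%) had an unadjusted p under 0.05, against 26.6% of all genes, and 0.0233% of 12861 genes were called lower and 0.0389% higher. Bub1 had the smallest difference, from 36.2 to 22.9 and from 36.9 to 34.8 FPKM. Macrophage markers summed to 3577 to 5267 FPKM in control and 7363 to 9899 with the hairpin there, which was not tested as a part of the result.

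In polyA RNA the sign was the other way round. The members' median log2 ratio of sh1137 to control was 0.64 in untreated cells, with 37 of 39 above 0, and 0.27 after 4 h of LPS, with 36 above 0, where the medians of all genes were -0.05 and -0.10. None of the differences passed limma's threshold, as no gene of 12025 did (0% called), and 18 members (46.2%) had an unadjusted p under 0.05, against 18.9% of all genes. On the scale of FPKM + 1 no member reached 2-fold (3.08% and 3.72% of genes were 2-fold higher). Cdk1, Bub1 and Kif11 passed it slightly in untreated cells where nothing was added to the FPKM. Cdk1 went from 31.4 to 63.1 FPKM untreated and from 32.2 to 42.8 at 4 h, Top2a from 28.9 to 54.9 and from 36.2 to 42.9. Foxm1 went from 7.03 to 14.0 and from 6.56 to 8.81, Ccna2 from 14.2 to 26.3 and from 8.71 to 13.3. Anln had the highest fitted difference, from 7.05 to 13.4 and from 3.52 to 6.79 FPKM (log2 0.81, SE 0.13, adjusted p = 0.154), and Racgap1, also of cytokinesis, went from 16.2 to 25.8 and from 11 to 18.1.

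The members that stayed out of this pattern were Ccnb2, which went from 22.8 to 22.7 and from 27.7 to 21.0 FPKM, Cenpa, from 22.8 to 22.0 and from 18.7 to 16.4, and Ube2c, from 14.7 to 18.3 and from 22.1 to 19.3. Thus 36 of 39 members (92.3%) were below 0 in the untreated and 4 h pairs of the unstranded 4sU set and above 0 in both polyA pairs, against 981 of 11626 genes (8.44%). The tables were normalized separately, so the difference between the RNA kinds was not tested. Nothing says that the 4sU and polyA libraries came from the same cultures, so a difference between cultures cannot be told apart from it. In the same polyA libraries all 12 tested macrophage markers had fitted differences below 0 (median -0.96, none called). The sum of all 13 macrophage markers found, tested or not, ran from 4158 to 8304 FPKM in control and from 2135 to 12552 with sh1137. The 8 lymphocyte markers summed to 75.2 to 115 FPKM in control and 28.3 to 39 with sh1137, with Cd3g and Ncr1 listed at 0. Lymphocyte sums were higher with the hairpin in the stranded set (6.79 to 6.92 against 16.1 to 16.3) and the set labelled Pnuts (7.89 to 9.24 against 13.3 to 13.6). They were lower in the Set1a+Set1b set (12.6 to 12.8 against 9.64 to 11.8) and overlapped in the unstranded and DRB sets. Their part was not tested.

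The same turn is seen in ranks within a library. Among genes of at least 1 FPKM, the median member stood at percentile 79.2 in control and 67.6 with sh1137 in untreated 4sU RNA, and at 39.5 and 57.2 in untreated polyA RNA. With LPS for 4 h it stood at 54.4 and 41.2 in 4sU RNA and at 29.3 and 38.6 in polyA RNA.

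**Figure D2:**
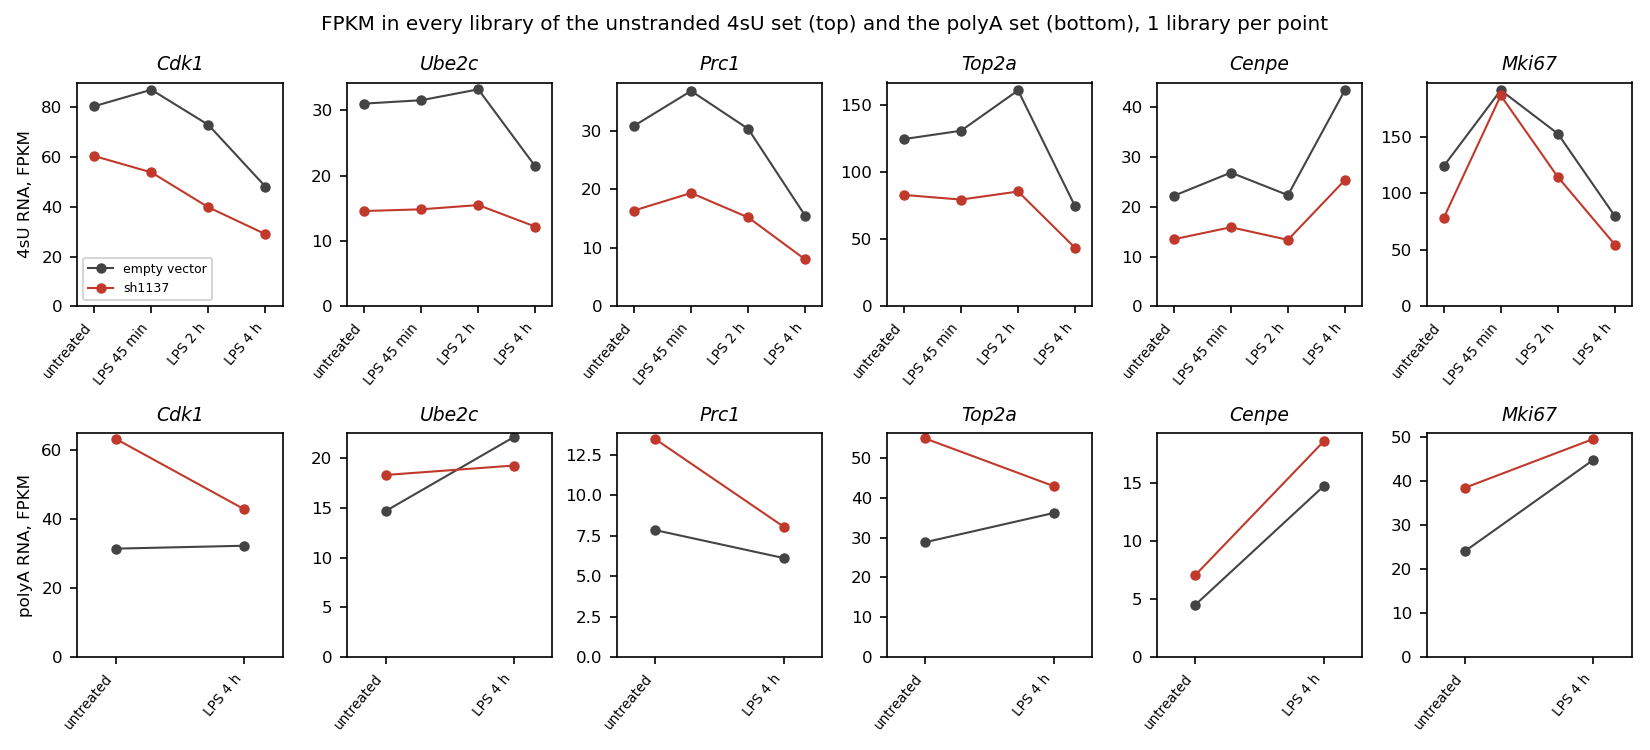
FPKM of 6 members in every library of the unstranded 4sU set (top) and the polyA set (bottom) of sh1137 (red) and the empty vector (dark grey); each point is 1 library, lines join treatments, and each axis starts at 0. In 4sU RNA the sh1137 points lie below control at each time, and in polyA RNA above it, except Ube2c at 4 h.

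**Figure D3:**
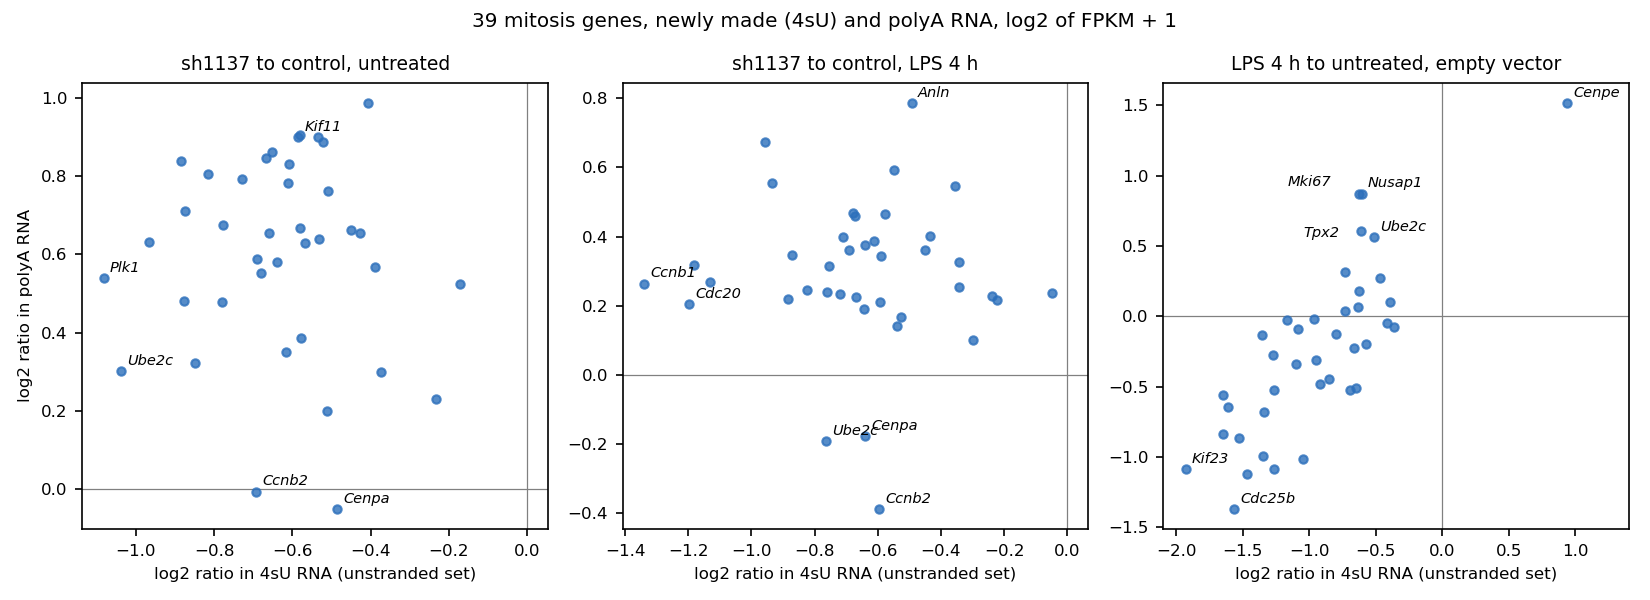
Each point is 1 of the 39 members, with its log2 ratio in unstranded 4sU RNA on the horizontal axis and in polyA RNA on the vertical axis, for sh1137 against control in untreated cells (left) and at 4 h of LPS (middle) and for LPS 4 h against untreated cells with the empty vector (right). In the first panels most points lie in the upper left, where 4sU is lower and polyA higher; in the third most lie in the lower left, with Cenpe apart in the upper right.

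Over 4 h of LPS most mitosis genes fell in newly made RNA. At 4 h, 34 of 39 members were called lower and 1 higher in the unstranded 4sU set, against 16.6% of genes called lower and 30.1% called higher (limma, with both vectors as repeats). The median was -0.92, where all genes had 0.16. Cdc25b fell most, from 36.6 to 11.7 FPKM with the empty vector and from 28.1 to 5.90 with sh1137 (log2 -1.82, SE 0.15, adjusted p = 0.000871). Its deposited lower bound was 0 in every library of this set, and 4 other genes lie in its locus. Kif23 went from 28.4 to 6.73 and from 17.3 to 5.09, and Ccna2 from 55.1 to 17.4 and from 34.4 to 8.63 FPKM, which are falls of -1.76 and -1.74 on the log2 scale. Ccnb1, Cdc25c, Tpx2 and Nusap1 were below 0 and not called. At least 2-fold lower in the single pairs were 17 members with the empty vector (11.3% of genes) and 20 with sh1137 (11.7%).

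Cenpe was the 1 member that rose. It went from 22.2 to 43.5 FPKM with the empty vector and from 13.5 to 25.4 with sh1137 (log2 0.90, SE 0.08, adjusted p = 0.00125). In polyA RNA it also rose, from 4.49 to 14.7 and from 7.05 to 18.6 FPKM (log2 1.4, SE 0.14, adjusted p = 0.0103).

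Fewer members were called at the earlier times. At 45 min, 1 member was called lower (2.29% of genes were), Cdc25b at -0.81, and 1 higher (5.52% were), Mki67 at 0.93. Neither passed without a filter on FPKM, without a trend, or with the 2 h or 4 h libraries left out. Mki67 went from 124 to 191 FPKM with the empty vector and from 78.0 to 186 with sh1137. Its deposited bounds were wide, at 0.363 to 310 and 0.0227 to 517 with the empty vector. With sh1137 they were 0.341 to 173 and 0.0909 to 500. At 2 h, 5 were called lower (9.47% of genes): Cdc25b at -1.06, Spc25 at -0.70, Ect2 at -0.68, Ttk at -0.54 and Nek2 at -0.52. None was called higher at 2 h (18.5% of genes were). The 3 LPS comparisons share the untreated libraries. In the other 4sU sets no member passed limma's threshold at 1 h of the stranded set or at 45 min of the Set1a+Set1b set and the set labelled Pnuts, where 0.249%, 0.861% and 0.225% of genes were called lower, 0.596%, 2.75% and 1.86% higher, and 7, 11 and 13 members had an unadjusted p under 0.05. These are 17.9%, 28.2% and 33.3% of members, near the 18.6%, 31.3% and 28.8% of all genes. Mki67 in these sets went from 369 to 568, from 195 to 281 and from 139 to 199 FPKM with the control vector.

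In polyA RNA at 4 h of LPS, 15 members were called lower and 1 higher, against 12.3% and 25.1% of genes. The median was -0.36 (all genes 0.15). Cdc25b went from 14.8 to 5.11 FPKM with the empty vector and from 18.4 to 6.11 with sh1137 (log2 -1.41, adjusted p = 0.00874). Kif23 and Cdc20 were called at -1.22 and -1.16, Cdc20 going from 10.7 to 4.49 and from 13.8 to 5.33. All kinesins but Kif11 and Kif15 were called, and 3 of the 4 passenger complex genes. Mki67 held 24.1 and 44.8 FPKM with the empty vector and 38.4 and 49.5 with sh1137, so its polyA value was higher after LPS while its 4sU value was lower (log2 0.61 and -0.57, adjusted p = 0.0697 and 0.0430). In single pairs, 5 members were 2-fold lower with the empty vector (8.79% of genes) and 6 with sh1137 (6.18%). Without a filter on FPKM none of the polyA calls passed.

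With DRB the members' share of calls was no larger than that of all genes, in either direction. In cells given LPS for 45 min, 8 members were called higher with DRB (25.9% of genes were) and 5 lower (18.8%). Ccnb1 was the lowest, from 26.4 to 7.62 FPKM with the scrambled hairpin and from 21.0 to 6.69 with sh1137 (log2 -1.59, SE 0.16, adjusted p = 0.00692), and Ccnb2 the highest, from 15.8 to 39 and from 12.5 to 29.3 (log2 1.21, SE 0.15, adjusted p = 0.00863). The other members called higher were Ube2c, Plk1, Bub1b, Incenp, Cenpf, Kif15 and Anln, and those called lower Aurka, Bub1, Kif2c and Mki67. FPKM are shares of a library, and DRB moved the median of all genes by 0.17. In single pairs, 1 member was 2-fold higher with the scrambled hairpin (16.7% of genes) and 2 with sh1137 (13.7%). Without a filter on FPKM no member was called in either direction.

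Genes outside the group were read from lists of neighbouring pathways, against the 6.99% of all genes called lower and the 6.07% called higher. Of the further genes of G2 and M phase, 26 of 36 were called lower with sh1137 in unstranded 4sU RNA (median -0.54), including the Emi1 gene Fbxo5 by -0.74, Arhgap11a by -0.54 and Ckap2l by -0.60. Of the DNA replication and G1/S genes, 15 of 30 were called lower (median -0.55), Mcm6 by -0.76, while Pcna (-0.43, adjusted p = 0.0565) and Tk1 (0.04) were not called. In polyA RNA the same list had all 30 above 0 with a median of 0.93, none called. Of G1 cyclins and their kinases, 2 of 8 were called lower, among them Cdk6 (-0.48), and 1 higher, while Ccnd1 (-0.08) and Myc (-0.64, adjusted p = 0.0848) were not called. The core subunits of the anaphase-promoting complex, which are made throughout the cycle, gave 1 of 13 lower and a median of -0.02, and Anapc1, Anapc2 and Cdc27 lay between -0.09 and 0.09. Condensin and cohesin subunits gave 5 of 13 lower (median -0.27), with Smc4 at -0.63 and Rad21 at -0.45. The B-Myb, DREAM and NF-Y regulators gave 2 of 17 lower (median -0.18), and Nfya, Rbbp4 and Rbl1 were not called. The Cdk inhibitors and p53 targets gave 1 of 12 higher and 0 lower, and Cdkn1a, the gene of p21, was not called (0.48, adjusted p = 0.121). These counts share the dependence on all 4 times given for the members.

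**Figure D4:**
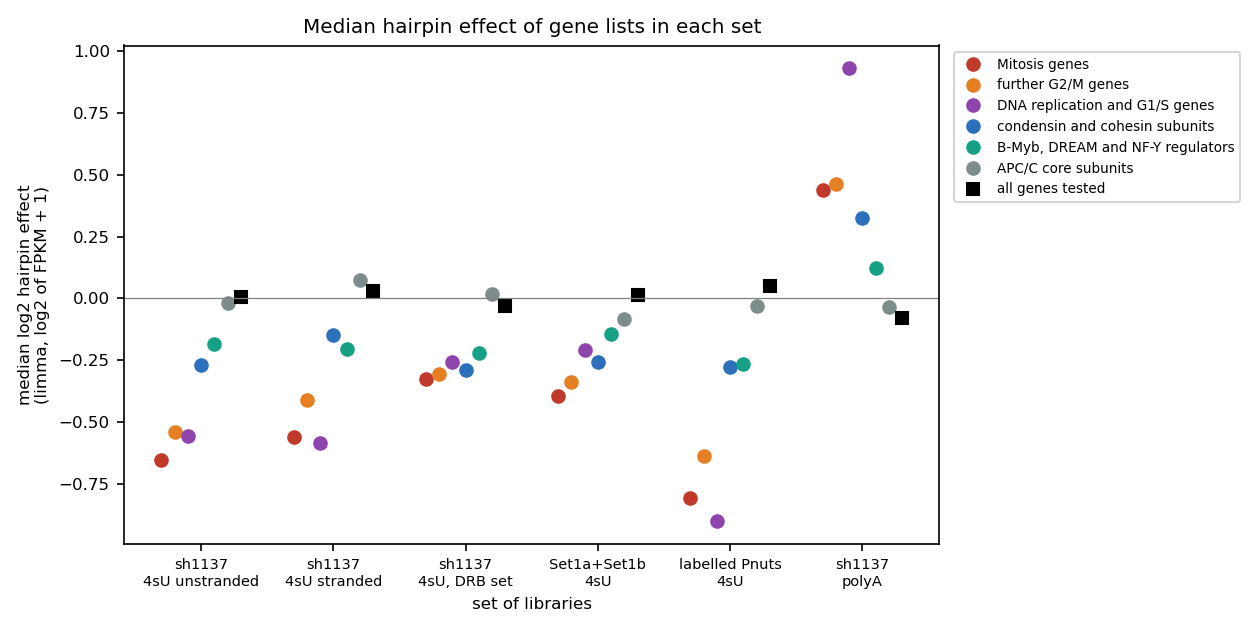
Median log2 hairpin effect (limma, log2 of FPKM + 1) of each gene list in each of the 6 sets; circles are lists, the square is the median of all tested genes. The mitosis genes, further G2/M genes and DNA replication genes lie below 0 in the 5 sets of 4sU RNA and above 0 in polyA RNA, and the core subunits of the anaphase-promoting complex stay near the square.

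Promoter motifs did not order the differences within the group. In the unstranded 4sU set, the 22 members with both CHR and CCAAT had a median log2 difference of -0.61, and the 10 members with a promoter entry but not both had -0.69. Among other tested genes, 540 with both motifs had a median of -0.04 with 55.2% below 0, and 7623 without both had 0.01 with 48.6% below 0. These are descriptions without a test. Gene length ran from 2974 bp for Ube2c to 67653 bp for Kif15 (RefSeq), and its Spearman correlation with the members' median 4sU ratio was 0.35 over the 39 genes, which share libraries. Another gene lies in the deposited locus of 13 members, such as Tnnc2 beside Ube2c, Elovl1 beside Cdc20 and Exosc9 beside Ccna2, and in unstranded libraries reads of overlapping genes cannot be told apart.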

How the data were processed

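RNA of 28 libraries in 6 tables was used. The submitters' processing notes name TopHat 1.3.1, Cufflinks 2.1.1, Cuffdiff 2.1.1 and the build mm9. The authors deposited FPKM with a lower and an upper bound and a status for each gene, per the file headers; for the annotation, the scaling and the level of the bounds, the sources used here give nothing. No counts are in these tables, so depth is known only as a ratio between libraries, and no counting error can be given. Libraries of 4sU RNA skipped both ribosomal depletion and polyA selection, per the labels' protocols, whose 4 h of LPS differs from the times in the titles.

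Differences were taken within a table on log2(FPKM + 1), which understates the change of low genes. Genes with a mean of at least 1 FPKM and status OK were fitted in limma 3.58.1 (R 4.3.3), with a mean-variance trend, on treatment and vector, and p was adjusted by Benjamini-Hochberg over all genes tested. Residual degrees of freedom were 3 in the unstranded set and 1 in the others, so an interaction of hairpin and LPS was not tested. A single pair has no test, and 2-fold ratios are counted.

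The members and gene lists were chosen with earlier results of these data known. Members are named by role. Library values are written out for up to 2 members per role with the highest mean FPKM and for the 3 highest and 3 lowest of a comparison, and other lists name up to 3 genes by mean FPKM. Genes named beyond this were chosen after their values were seen. Alternatives were a pseudocount of 0.1, a minimum of 5 FPKM or none, no trend, median centring, and leaving out each time. Leaving out the set labelled Pnuts or the DRB pair was added after seeing the data.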

Additional observations from a re-analysis of the deposited data

Results flagged for a closer look

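The hairpin difference ran in opposite directions in the kinds of RNA. With sh1137, 36 of the 39 mitosis genes were lower in both unstranded 4sU pairs of the same treatments and higher in both polyA pairs, against 8.44% of genes. The difference was not tested, because the tables were normalized separately, and nothing says that the 2 kinds of RNA came from the same cultures. The 3 genes outside it were Ccnb2, Ube2c and Cenpa.

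After 4 h of LPS, 5 members were lower in 4sU RNA and higher in polyA RNA with both vectors, against 3.95% of 11613 genes (12.8% of members), and this difference was not tested either. They were Ube2c, Kif15, Tpx2, Nusap1 and Mki67. With the empty vector the log2 ratios in 4sU and polyA RNA were -0.61 and 0.87 for Nusap1, -0.63 and 0.87 for Mki67, -0.61 and 0.61 for Tpx2, -0.52 and 0.56 for Ube2c, and -0.40 and 0.10 for Kif15. With sh1137 the 4sU ratios of the 5 genes ran from -0.51 for Mki67 to -0.13 for Tpx2. Their polyA ratios with sh1137 ran from 0.03 for Kif15 to 0.36 for Mki67. Those of Kif15, Tpx2 and Ube2c, at 0.03, 0.04 and 0.07, were near 0.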

How the results depend on the processing

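Without a filter on FPKM the members called in the unstranded 4sU set went from 33 to 7 lower with sh1137, from 5 to 3 lower at 2 h of LPS, and to 0 in both directions at 45 min; calls also went to 0 for the hairpin in the stranded set, LPS in polyA RNA (15 lower, 1 higher) and DRB (5 lower, 8 higher). Without a trend they went to 0 at 45 min and in the stranded set, and to 2 lower and 3 higher with DRB. A pseudocount of 0.1 gave 9 calls for the stranded hairpin and a minimum of 5 FPKM gave 10; that minimum gave 1 lower at 45 min of the Set1a+Set1b set, from 0. Centring gave 8 lower at 2 h.

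Leaving out 1 time gave 0 to 20 hairpin calls in the unstranded set and 0 for LPS at 45 min. Fewer libraries were then fitted.

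Members past 2-fold in a single hairpin pair moved with a pseudocount of 0.1 to 4 and 8 (unstranded, untreated and 2 h), 3 (stranded, untreated), 2 higher (polyA, untreated) and 1 (Set1a+Set1b, untreated). With centred ratios they moved to 3 (stranded, untreated), 1 higher (polyA, untreated) and 18 (set labelled Pnuts, 45 min), and for treatment to 8 and 10 lower (polyA at 4 h, empty vector and sh1137) and 0 higher (DRB, sh1137). The cause was not tested. Of the 105 single-member calls of the main fits, none changed sign in the alternatives where the gene was tested. The signs of differences that were not called were not checked in this way. Of the alternatives for member counts, 365 stayed within 1.5 times and 37 did not. A count of 0 that stayed 0 was taken as unchanged, so these numbers do not measure how stable the calls are. The fit compared hairpin and control within each treatment. Libraries could not be paired by culture, because the labels number no replicates.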
